A study of Mus musculus with 12 samples.

Results

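Liver sinusoidal endothelial cells (LSEC) purified from mice on a diet that induces nonalcoholic steatohepatitis (NASH) were compared with LSEC from mice on chow. The comparison used 6 of the study's 12 RNA-seq libraries, 3 per diet, chosen as the LSEC table's columns that the line above its header assigns to chow or to NASH; the other 6 libraries were whole liver. All mice were C57BL/6. The labels give 36 weeks of NASH diet, in a protocol attached to every sample including chow, and do not give the animals' age or sex. Non-parenchymal liver cells were depleted of CD11b-positive myeloid cells and then selected on CD146 with magnetic beads, so the cells were chosen by 1 surface protein and by the absence of another. The labels do not say that libraries came from separate animals, and the p-values therefore measure the spread between these samples, which may be technical. Every library name is a position in the table (chow 1 to 3, NASH 1 to 3) and pairs nothing, and values are given in that order.

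LSEC line the liver's sinusoids as a fenestrated endothelium without an organized basement membrane, and they clear macromolecules from blood through scavenger receptors such as the stabilins and the mannose receptor. They also send signals to neighbouring cells, among them Wnt ligands that set hepatocyte zonation and the bone morphogenetic proteins BMP2 and BMP6 that drive hepcidin, the hormone of iron balance. In chronic liver injury the cells are known to lose fenestrae, gain capillary traits and lay down basement membrane, which is called capillarization.

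The LSEC libraries held 18527017 to 19402863 recovered reads over 16273 genes, and values are normalized reads as the authors deposited them. No 2 libraries of a diet were copies, since their reads differed by a chi-square of 41.965 to 96.229 per degree of freedom. The first principal component carried 48.254% of the variance and separated the diets, and the second carried 19.409% and set chow library 2 apart from the other 5. By limma on log2(normalized reads + 1), with Benjamini-Hochberg adjustment over all genes and a threshold of 0.05, 853 genes (5.24%) were higher and 466 (2.86%) were lower in NASH, 8.11% in either direction. In 16.5% of all genes every NASH library was above every chow library, and in 15.4% every NASH library was below. Of the called genes 64.67% were higher. That share was 81.0% (1164 higher, 273 lower) with scaling by total reads, which moved the median of all genes by 0.135 on the log2 scale, and 47.78% (733 higher, 801 lower) with median centring. No called gene changed sign under either. The count of calls rested on single libraries, with 1171, 1055 and 255 calls without chow libraries 1, 2 and 3 and 474, 241 and 124 without NASH libraries 1, 2 and 3. In all 6 of these refits 105 genes were called, 66 higher and 39 lower. After the adjusted p of a called gene stands its highest adjusted p in the refits, as "at most" where all 6 refits called it and as "up to" with the libraries whose removal ended the call. After the counts of a list stand their ranges over the refits, rises before falls, with the libraries whose removal left the fewest calls.

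Endothelial genes ranked high in these libraries. Among genes with an annotated length, ranked by chow reads per kilobase, the sinusoidal genes Gpr182 and Mrc1 stood at ranks 25 and 34, and the junctional cadherin gene Cdh5 stood at rank 42. Mcam, which encodes the CD146 bead target, had 6471, 6961 and 6240 normalized reads on chow and 10425, 9519 and 9458 on the NASH diet, a log2 fold change of 0.58 ± 0.11 (SE; adjusted p = 0.0283, up to 0.109 without chow 3 or NASH 1 or 2 or 3). The groups did not overlap. Itgam, which encodes the depleted CD11b, had 164, 49.0 and 38.9 normalized reads on chow and 177, 201 and 231 on the NASH diet (log2 fold change 1.55 ± 0.51, adjusted p = 0.111). Its reads were low in chow 2 and 3, and in chow 1 they were near the NASH level. The pan-endothelial genes Pecam1 and Cdh5 had log2 fold changes of -0.08 and -0.18 (adjusted p = 0.753 and 0.561).

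Markers of other liver cells were present in every library and differed between libraries of 1 diet. The summed normalized reads of 8 sinusoidal markers were 491752, 546998 and 495112 on chow and 283387, 297023 and 289715 on the NASH diet, with 4 of 8 lower and 1 higher; the falls numbered 0 (without chow 3 or NASH 3) to 4 (without chow library 1) in the refits. The sum of 12 hepatocyte markers was 16073, 96144 and 7509 on chow and 43780, 54506 and 93359 on the NASH diet, high in chow 2 and in all NASH libraries, and 0 of 12 were called by limma, edgeR or DESeq2 (1 at an unadjusted p under 0.05; median log2 fold change 1.71). Without chow 2, 8 of the 12 were called higher. For 10 Kupffer cell markers it was 37087, 25770 and 13219 on chow and 58274, 75578 and 59851 on the NASH diet, with 5 higher, and for 10 markers of recruited macrophages 4950, 4784 and 8930 on chow and 17342, 48708 and 26610 on the NASH diet, with 5 higher. Rises numbered 0 (without any 1 NASH library, and with the mean log2 level of the hepatocyte markers as a covariate) to 7 (without chow 1) for the Kupffer list, and 3 (without NASH 1 or 3) to 8 (without chow 1) for the recruited macrophage list. For both macrophage lists every NASH library lay above every chow library. Spp1, in the recruited macrophage list and also in the cholangiocyte list below, had 3630, 4231 and 8507 on chow and 9393, 42429 and 15403 on the NASH diet. It made up most of the sum of both lists in every library, so those sums are not independent. Of 10 stellate cell markers (40873, 20743 and 57909 on chow and 75414, 56889 and 36706 on the NASH diet) 2 were higher (0 to 2 in the refits, fewest without chow 3 or NASH 1 or 2 or 3), and the groups' sums overlapped. Of 6 myofibroblast markers (1391, 8001 and 4248 on chow and 17094, 12265 and 10910 on the NASH diet, without overlap) 2, Col1a1 and Postn, were higher. The log2 fold change was above 0 for all 6, and both called genes are also in the interstitial matrix list. The sum of 7 cholangiocyte markers was 4171, 4846 and 9451 on chow and 10384, 47310 and 17446 on the NASH diet, without overlap. Of these 7, limma called 1 higher (0 to 2 in the refits, fewest without chow 3 or NASH 2 or 3), and DESeq2 called 7 higher. Of 10 T and NK cell, 6 B and plasma cell, 6 neutrophil, 4 mesothelial and 5 platelet markers measured, 0 were called by limma, with 0, 0, 2, 1 and 3 at an unadjusted p under 0.05; edgeR called 1 platelet marker, and DESeq2 1 mesothelial and 2 platelet markers. The part of these cells in the results below was not tested.

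**Figure D1:**
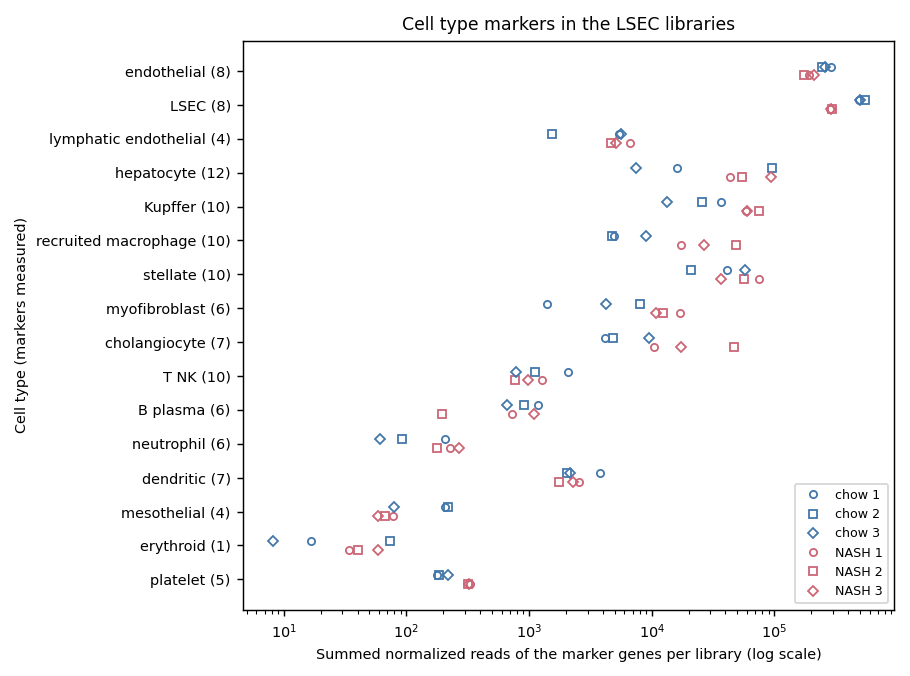
Summed normalized reads of each cell type's markers (log axis, number of markers measured in brackets) in the 6 LSEC libraries; each point is 1 library, blue for chow and red for NASH. The sinusoidal markers lie lower in all 3 NASH libraries, both macrophage lists lie higher in all 3, and the hepatocyte sum overlaps between diets because chow 2 is at 96144.

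Genes of sinusoidal identity were lower in NASH LSEC, while 3 receptors of modified lipids and hyaluronan were higher. Of 22 identity genes measured, 7 fell and 0 rose, with a median log2 fold change of -0.52 against 6.78e-05 over all genes. Fewer sinusoidal cells in a library and less RNA per cell cannot be told apart in bulk samples. Ehd3, an endocytic trafficking gene, had 89690, 69398 and 92684 normalized reads on chow and 23510, 30169 and 31633 on the NASH diet, a log2 fold change of -1.56 ± 0.20 (SE; adjusted p = 0.0101, up to 0.051 without NASH 3). Dnase1l3, a secreted DNase that clears extracellular chromatin, had 127505, 144108 and 132493 normalized reads on chow and 52531, 59730 and 54454 on the NASH diet (-1.28 ± 0.17, adjusted p = 0.0118, up to 0.0666 without chow 3 or NASH 3). For both genes all NASH libraries were below all chow libraries. Gata4, the transcription factor that specifies sinusoidal endothelium, had 12439, 15015 and 15181 normalized reads on chow and 8797, 9279 and 8519 on the NASH diet (-0.68 ± 0.13, adjusted p = 0.0278, up to 0.113 in every refit except without chow 1). The other 4 that fell were Sema6a (-0.61), Oit3 (-0.72), Maf (-0.53) and the plexin gene Plxnc1 (-0.81), the last named after its value was seen. Sema6a, Oit3, Maf and Plxnc1 were called in 1, 1, 0 and 0 of the 6 refits (highest adjusted p = 0.135, 0.152, 0.144 and 0.142). Over the refits the count of falls was 0 (without NASH library 3) to 5 (without chow library 1), 3 with scaling by total reads and 2 with the mean log2 level of the hepatocyte markers as a covariate.

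Among 24 scavenger and endocytic receptors, 3 rose and 3 fell (1 to 5 and 1 to 3 in the refits, fewest without NASH 3). Cd209b, a C-type lectin of the SIGNR family, had 629, 610.4 and 748 normalized reads on chow and 90.8, 150.2 and 86.4 on the NASH diet, a log2 fold change of -2.63 ± 0.25 (SE; adjusted p = 0.00416, at most 0.0302). Clec4g, the sinusoidal lectin LSECtin, had 62843, 93712 and 81528 on chow and 36993, 44919 and 33893 on the NASH diet (-1.03 ± 0.21, adjusted p = 0.0339, up to 0.133 in every refit except without chow 1). Fcgr2b, the receptor that takes up small immune complexes, had 66797, 104762 and 87870 on chow and 48048, 45562 and 45934 on the NASH diet (-0.87 ± 0.21, adjusted p = 0.0479, up to 0.162 in every refit except without chow 1). The large scavenger receptors themselves did not pass. Stab2, the hyaluronan receptor stabilin-2, had 80947, 50700 and 49299 normalized reads on chow and 39831, 25860 and 47080 on the NASH diet (-0.69 ± 0.29, adjusted p = 0.193), and NASH 3 was close to chow 2 and 3. Stab1 was at -0.51 and the mannose receptor gene Mrc1 at -0.70 (adjusted p = 0.145 and 0.0523), each with all NASH libraries below all chow libraries. In the other direction, Cd36, a receptor for long-chain fatty acids and oxidized lipoproteins, had 14336, 14307 and 18213 normalized reads on chow and 40376, 40035 and 42832 on the NASH diet, a log2 fold change of 1.40 ± 0.15 (adjusted p = 0.00613, at most 0.0413). Olr1, the oxidized LDL receptor LOX-1, had 18.8, 13.1 and 7.17 normalized reads on chow and 134, 119 and 122 on the NASH diet (3.26 ± 0.38, adjusted p = 0.00795, up to 0.051 without NASH 3). Lyve1, a hyaluronan receptor of sinusoidal and lymphatic endothelium, had 7063, 6872 and 8729 normalized reads on chow and 14903, 26118 and 19957 on the NASH diet (1.40 ± 0.22, adjusted p = 0.0168, up to 0.0709 without chow 3 or NASH 3). None of these 3 overlapped between diets. 

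Of 47 transcription factors of endothelium measured, 5 rose and 4 fell (2 to 4 and 0 to 3 in the refits, fewest without chow 3 or NASH 1 or 2 or 3). Irf7, an interferon-induced regulator of type I interferon, had 1145, 1213 and 982 normalized reads on chow and 4795, 4978 and 3157 on the NASH diet (1.93 ± 0.19, adjusted p = 0.00493, at most 0.0323). Pparg, the fatty acid-sensing nuclear receptor of endothelial and other lipid-handling cells, had 214, 293 and 232 normalized reads on chow and 901, 728 and 628 on the NASH diet (1.60 ± 0.19, adjusted p = 0.00895, at most 0.0433). Every NASH library was above every chow library for both genes, and NASH 3 was the lowest of its group. Prox1, the master regulator of lymphatic endothelium that hepatocytes also use, rose by 1.43. The summed lymphatic endothelial markers, Prox1 among them, were 5418, 1542 and 5581 on chow and 6678, 4625 and 5096 on the NASH diet, overlapping between diets. Beside Gata4 and Maf, the homeobox genes Meis1 (-0.91) and Meis2 (-0.66) fell. Klf2 and Klf4, the factors induced by shear stress, were at -0.12 ± 0.38 and -0.19 ± 0.42 (adjusted p = 0.868 and 0.815). They varied widely within a diet: Klf2 had 8022, 19416 and 18509 on chow and 18089, 12539 and 9839 on the NASH diet. Prox1, Meis1 and Meis2 were called in 0, 2 and 1 of the 6 refits (highest adjusted p = 0.137, 0.08 and 0.132).

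Genes of continuous capillaries moved both ways, with 5 of 32 higher and 4 lower (1 to 5 and 0 to 2 in the refits, fewest without chow 3 or NASH 1 or 3). Cd34, a surface mucin that sinusoidal cells normally carry little of, had 1444, 949.8 and 1304 normalized reads on chow and 2494, 2566 and 4111 on the NASH diet (1.29 ± 0.24, adjusted p = 0.0259, up to 0.079 without chow 3 or NASH 1 or 2 or 3). Fabp4, a fatty acid-binding protein of capillary endothelium and macrophages, rose by 1.22. Plvap, which forms the diaphragms of fenestrae, had 13225, 14605 and 15462 normalized reads on chow and 21797, 21466 and 18564 on the NASH diet (0.51 ± 0.13, adjusted p = 0.0619), with no overlap but not called. Vwf, the von Willebrand factor gene, was at 0.74 ± 0.27 (adjusted p = 0.134). Aqp1, a water channel, had 124421, 120209 and 152910 normalized reads on chow and 68981, 67219 and 68705 on the NASH diet (-0.95 ± 0.19, adjusted p = 0.031, up to 0.122 without chow 3 or NASH 1 or 2 or 3), the caveolin gene Cav2 fell by 0.93 and Ephb4, a receptor of venous endothelium, by 0.59 (adjusted p = 0.0482, up to 0.158 in every refit except without chow 2). Fabp4 and Cav2 were each called in 1 of the 6 refits (highest adjusted p = 0.123 and 0.125). Of 27 genes of vascular tone 0 rose and 2 fell (0 to 1 and 0 to 2 in the refits, fewest without NASH 3). Npr1, the receptor for atrial natriuretic peptide, had 16091, 15862 and 15744 normalized reads on chow and 8761, 8409 and 8770 on the NASH diet (-0.88 ± 0.11, adjusted p = 0.00895, up to 0.0517 without NASH 3), and Ptgis, prostacyclin synthase, fell by 1.29 (adjusted p = 0.0463, up to 0.146 in every refit except without chow 1). Nos3, endothelial nitric oxide synthase, was at 0.08 ± 0.14 (adjusted p = 0.755). 

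Signals by which LSEC act on neighbouring cells were lower for BMP2, BMP6 and Wnt2. They were higher for activin subunit and apelin genes and for the latent TGF-beta binding protein genes Ltbp2 and Ltbp3. Bmp6, a ligand that induces hepcidin in hepatocytes, had 5801, 4711 and 6778 normalized reads on chow and 1800, 1779 and 2267 on the NASH diet (-1.56 ± 0.17, adjusted p = 0.00648, at most 0.0367). Bmp2, the second such ligand, had 34001, 39719 and 42448 normalized reads on chow and 16734, 16765 and 19931 on the NASH diet (-1.12 ± 0.15, adjusted p = 0.0118, up to 0.0561 without chow 3 or NASH 2 or 3). Neither gene overlapped between diets. Of 41 genes of BMP and TGF-beta signalling, these 2 and the co-receptor gene Eng (-0.68) were the 3 that fell, and 8 rose. Among the TGF-beta ligands, Tgfb1 was at -0.35 and Tgfb2 at 0.81 (adjusted p = 0.196 and 0.146), Tgfb1 with all NASH libraries below all chow libraries and Tgfb2 with all above. Tgfb3, named after its value was seen, had 88.8, 119.7 and 89.1 normalized reads on chow and 214, 348 and 268 on the NASH diet (1.46 ± 0.25, adjusted p = 0.0205, up to 0.0901 without chow 3 or NASH 2 or 3). The receptor gene Tgfbr1, also named after its value was seen, rose by 0.66 (adjusted p = 0.0327, its refits not reported here). The receptor gene Tgfbr2 was at -0.53 (adjusted p = 0.0787). Ltbp4, the latent TGF-beta binding protein gene with the most reads, had 59422, 42223 and 55926 on chow and 34398, 32319 and 36660 on the NASH diet (-0.59, adjusted p = 0.0908). The diets did not overlap for Tgfbr1, Tgfbr2 or Ltbp4. Inhbb, which encodes an activin subunit, had 1009, 1074 and 928 normalized reads on chow and 2555, 4833 and 2290 on the NASH diet (1.60 ± 0.27, adjusted p = 0.0201, up to 0.0763 without chow 3 or NASH 1 or 3). Ltbp2 and Ltbp3, of the latent TGF-beta binding protein family, rose by 4.33 and 1.34, and Bmp1, a protease that processes procollagens and growth factor carriers, by 1.86. Bmp1 had 102, 92.5 and 122 on chow and 397, 393 and 359 on the NASH diet. In all 6 refits Bmp1 and Ltbp2 passed. Ltbp3 and Eng were called in 4 and 0 of the 6 refits (highest adjusted p = 0.056 and 0.151). Between refits the list's rises numbered 2 (without NASH library 3) to 9 (without chow library 1).

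Wnt genes were divided, with 3 of 29 higher and 3 lower (0 to 2 and 1 to 4 in the refits, fewest without chow 3). Wnt2, a ligand of pericentral endothelium that supports hepatocyte zonation, had 3155, 3199 and 3690 normalized reads on chow and 1328, 2116 and 1243 on the NASH diet (-1.14 ± 0.21, adjusted p = 0.0256, up to 0.0955 without chow 3 or NASH 1 or 3). Its partner Wnt9b was at -0.99 ± 0.38 and Rspo3, the R-spondin that amplifies Wnt signals, at -0.17 ± 0.21 (adjusted p = 0.157 and 0.646), and both overlapped between diets. Dkk3, a secreted protein of the Dickkopf family, had 2840, 2870 and 3249 normalized reads on chow and 731, 711 and 649 on the NASH diet (-2.10 ± 0.11, adjusted p = 0.00237, at most 0.0214). Nkd1, a negative feedback target of Wnt signalling, fell by 1.27. The noncanonical ligand gene Wnt5a had 6.27, 23.9 and 23.5 normalized reads on chow and 60.9, 96.1 and 78.1 on the NASH diet (2.25 ± 0.53), and the antagonist gene Dkk2 rose by 3.69 from few reads (1.04, 4.35 and 1.02 on chow and 11.6, 47.6 and 77.2 on the NASH diet). The receptor gene Fzd1 rose by 0.71 (adjusted p = 0.0455, up to 0.149 with any 1 library left out). Kit, the other pericentral gene of 10 that fell, had 11084, 13350 and 8972 normalized reads on chow and 4540, 5280 and 5376 on the NASH diet (-1.12 ± 0.17, adjusted p = 0.0154, up to 0.0616 without NASH 1 or 2 or 3), and of 12 periportal endothelial genes 0 were called by limma or edgeR, 2 by DESeq2 and 1 with scaling by total reads, with 4 at an unadjusted p under 0.05. Nkd1, Wnt5a and Dkk2 were called in 5, 2 and 2 of the 6 refits (highest adjusted p = 0.054, 0.152 and 0.121).

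Among 24 angiogenic ligands and receptors 5 rose and 1 fell (2 to 4 and 0 to 2 in the refits, fewest without chow 3 or NASH 3). Apln, the peptide apelin of angiogenic tip cells, had 59.5, 68.5 and 68.6 normalized reads on chow and 427, 325 and 235 on the NASH diet (2.27 ± 0.26, adjusted p = 0.00743, at most 0.0399), and its receptor gene Aplnr had 4.18, 15.2 and 4.09 on chow and 34.8, 39.2 and 83.7 on the NASH diet (2.72 ± 0.59, adjusted p = 0.0382, up to 0.138 in every refit except without chow 2). Angptl4, an inhibitor of lipoprotein lipase induced by fatty acids and hypoxia, had 33.4, 75.1 and 20.5 normalized reads on chow and 534, 559.8 and 362 on the NASH diet (3.64 ± 0.46, adjusted p = 0.01, at most 0.0494). Pdgfc, a growth factor for mesenchymal cells, rose by 1.66. Nrp1, the VEGF and semaphorin co-receptor, had 45123, 38528 and 41768 normalized reads on chow and 21288, 19489 and 24216 on the NASH diet (-0.95 ± 0.15, adjusted p = 0.0171, up to 0.0703 without chow 3 or NASH 1 or 2 or 3). Kdr, the main VEGF receptor, was at -0.84 ± 0.26 (adjusted p = 0.0958), with all NASH libraries below all chow libraries. In the Notch pathway 1 of 20 genes rose, the target Heyl (1.51), beside 5.24% of all genes. Of the 20, 2 fell, beside 2.86% of all genes: the Fringe glycosyltransferases Lfng (-1.37) and Mfng (-0.57). Rises numbered 0 to 1 and falls 0 to 1 in the refits, fewest without chow 3 or NASH 1 or 3. Lfng had 3203, 2464 and 2563 on chow and 899, 1441 and 895 on the NASH diet (adjusted p = 0.0168, up to 0.0687 without chow 3 or NASH 1 or 3). Pdgfc, Heyl and Mfng were called in 2, 1 and 0 of the 6 refits (highest adjusted p = 0.114, 0.109 and 0.153). Semaphorin, plexin and ephrin genes were divided, with 5 of 39 higher and 5 lower (0 to 2 and 0 to 3 in the refits, fewest without NASH 3). Ephb2, Sema7a, Plxnb1 and Sema3a rose by 1.87, 1.77, 1.70 and 1.38 and were called in 1, 0, 1 and 0 of the 6 refits (highest adjusted p = 0.136, 0.125, 0.143 and 0.148). Sema3d, a secreted semaphorin, had 1819, 1266 and 1359 on chow and 646, 759 and 562 on the NASH diet (-1.17 ± 0.18, adjusted p = 0.0168, up to 0.0686 without chow 3 or NASH 1 or 3).

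**Figure D2:**
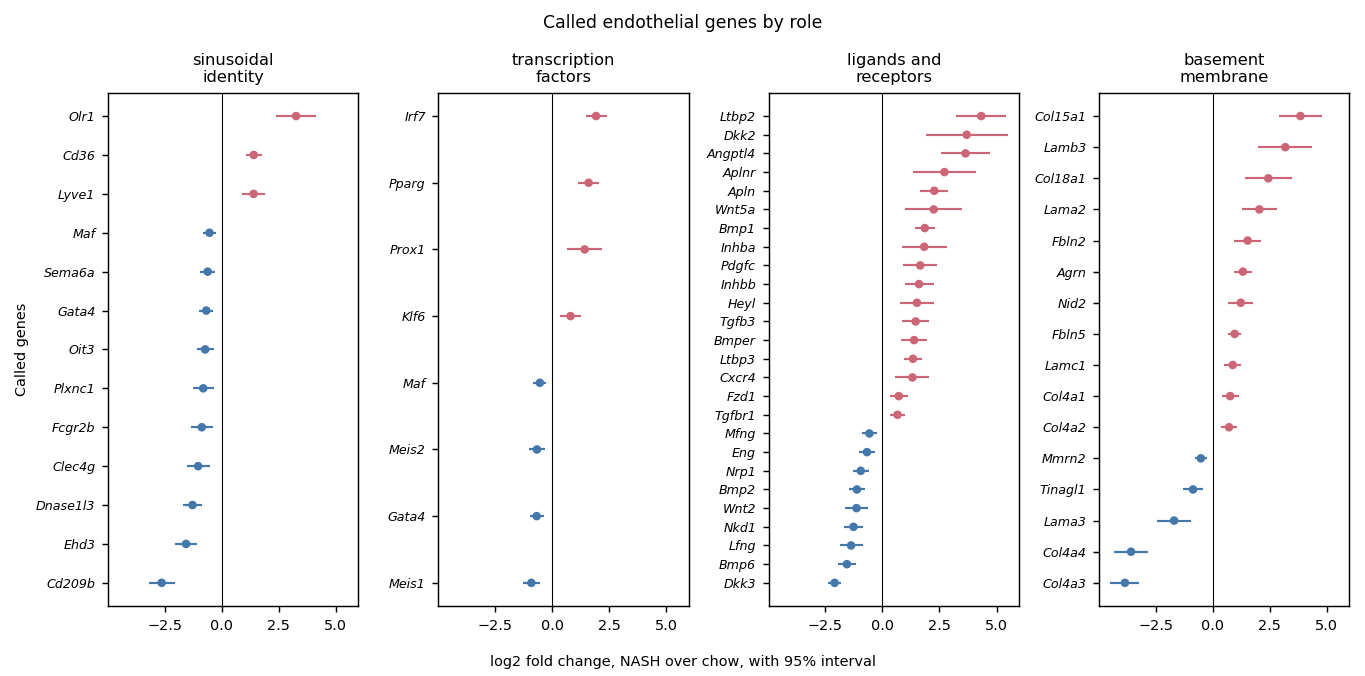
Log2 fold change, NASH over chow, with its 95% interval, for called genes of the sinusoidal, transcription factor, signalling and basement membrane lists in LSEC; red points are higher and blue lower in NASH. In the rightmost panel Col4a3 (-3.85) and Col4a4 (-3.58) lie opposite to Col4a1 (0.76) and Col4a2 (0.71).

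Type IV collagen, the network of basement membranes, changed in opposite directions by chain. Its chain genes lie in head-to-head pairs, and the pair Col4a3 and Col4a4 is read outward from the interval between their start sites. Col4a3 lies on chromosome 1 at 82586921 to 82722059 on the plus strand and Col4a4 at 82448423 to 82586849 on the minus strand (mm10). The 71 bases between them are shown because both genes fell together (RefSeq promoter table, GRCm38.p6, chr1:82586850-82586920, minus strand, so that Col4a4 follows to the right):
Col4a4-Col4a3: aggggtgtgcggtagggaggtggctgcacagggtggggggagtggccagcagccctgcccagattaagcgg
Neither a GC box (GGGCGG) nor a CCAAT box matched on either strand, so no part is in capitals; in the 71 bases before the start, 20.73% and 13.32% of all promoters in that table held one. Col4a3 had 965, 714 and 895 normalized reads on chow and 48.3, 84.9 and 47.4 on the NASH diet, a log2 fold change of -3.85 ± 0.27 (SE; adjusted p = 0.00241, at most 0.0214). Col4a4 had 568, 248 and 366 normalized reads on chow and 30.0, 28.9 and 31.6 on the NASH diet (-3.58 ± 0.32, adjusted p = 0.00377, at most 0.0278). For both, the highest NASH library was far under the lowest chow library. The pair of the common network, Col4a1 and Col4a2 on chromosome 8, was named to set beside them after its values were seen. Col4a1 had 20289, 16198 and 16907 normalized reads on chow and 32157, 26249 and 31950 on the NASH diet (0.76 ± 0.16, adjusted p = 0.0343, up to 0.125 in every refit except without chow 1). Col4a2 had 13348, 11475 and 11002 normalized reads on chow and 20598, 16663 and 21552 on the NASH diet (0.71 ± 0.15, adjusted p = 0.0373, up to 0.133 in every refit except without chow 1). Per kilobase of annotated exon, Col4a1 had 2385 normalized reads in chow and 4035 in NASH, and Col4a3 86.1 and 6.04. 

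Of 31 basement membrane genes in all, 11 rose and 5 fell (falls 2 to 3 in the refits, fewest without chow 3 or NASH 1 or 2), with a median log2 fold change of 0.76. Col15a1, a collagen that ties basement membrane to interstitial matrix and marks capillarized endothelium, had 27.2, 56.6 and 33.8 normalized reads on chow and 548, 347 and 864 on the NASH diet (3.84 ± 0.40, adjusted p = 0.00556, at most 0.0339). Agrn, the heparan sulfate proteoglycan agrin, had 2646, 1714 and 2284 normalized reads on chow and 5471, 4957 and 5909 on the NASH diet (1.32 ± 0.17, adjusted p = 0.0114, up to 0.0597 without NASH 3). The elastin-binding fibulin gene Fbln5 rose by 0.96 and the laminin chain gene Lamb3, of epithelial basement membranes, by 3.18. Lama3, the partner chain of laminin-332, fell by 1.70, with 970.5, 706 and 549 on chow and 178, 176 and 349 on the NASH diet, and Tinagl1 fell by 0.87. Fbln5, Lamb3, Lama3 and Tinagl1 were called in 5, 3, 2 and 1 of the 6 refits (highest adjusted p = 0.056, 0.0808, 0.0985 and 0.131). Rises numbered 1 (without NASH library 3) to 10 (without chow library 1) over the refits.

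Interstitial matrix genes rose for 17 of 32 members and fell for 0, with a median log2 fold change of 1.86. Col1a1, a chain of type I collagen, had 285, 396 and 451 normalized reads on chow and 9173, 4205 and 6425 on the NASH diet (4.08 ± 0.30, adjusted p = 0.00261, at most 0.0214). Col3a1, type III collagen, had 1225, 1120 and 1485 normalized reads on chow and 20596, 9676 and 11425 on the NASH diet (3.37 ± 0.28, adjusted p = 0.00322, at most 0.0214). Fn1, fibronectin, had 1611, 1079 and 1690 normalized reads on chow and 8947, 7196 and 8921 on the NASH diet (2.54 ± 0.20, adjusted p = 0.00266, at most 0.0243). In each of these genes the lowest NASH library was above the highest chow library, and for both collagens NASH 1 was the highest. Type I and III collagens are products of stellate cells and fibroblasts. Of the 10 stellate and 6 myofibroblast markers, 9 and 6 had a log2 fold change above 0 (medians 0.84 and 1.04). The stellate markers called were Pdgfrb and Rgs5, and 5 were called with the hepatocyte covariate. Pdgfrb had 373, 228 and 549.7 on chow and 1692, 925 and 1068 on the NASH diet (1.72 ± 0.35, adjusted p = 0.0337, up to 0.107 in every refit except without chow 2). Rgs5 had an adjusted p of 0.0468, up to 0.134 without chow 3 or NASH 1 or 2 or 3. Lrat, not called, had 1891, 279 and 2819 on chow and 3765, 2479 and 2018 on the NASH diet (1.22, adjusted p = 0.375). Dcn had 13009, 7372 and 21262 on chow and 34079, 24004 and 14381 on the NASH diet (0.84, adjusted p = 0.272). Which cells carried the collagen reads was not tested. The small leucine-rich proteoglycan genes Dcn, Lum and Bgn, made by the same cells, were at 0.84, 1.41 and -0.24 and did not pass. All 6 refits called Col1a2. Refits gave 8 (without NASH library 3) to 16 (without chow library 1) rises, and 7 of the 17 were called in all of them.

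Among 36 enzymes and inhibitors of matrix turnover 15 rose and 2 fell, with a median of 1.03. Mmp12, macrophage metalloelastase, had 66.9, 22.8 and 28.7 normalized reads on chow and 3618, 2510 and 4348 on the NASH diet (6.55 ± 0.40, adjusted p = 0.00237, at most 0.0214), the largest rise of the table by the naming rule. Mmp13, an interstitial collagenase, had 28.2, 23.9 and 15.4 normalized reads on chow and 699.5, 372 and 574 on the NASH diet (4.54 ± 0.33, adjusted p = 0.00261, at most 0.0214). Timp1, the inhibitor of metalloproteinases induced in fibrosis, had 15.7, 33.7 and 15.4 normalized reads on chow and 315, 208 and 187 on the NASH diet (3.45 ± 0.38, adjusted p = 0.00699, at most 0.0409). Adamts9, which cleaves versican, rose by 1.56. Htra1, a secreted serine protease, had 945, 827 and 784 normalized reads on chow and 297, 339 and 337 on the NASH diet (-1.39 ± 0.14, adjusted p = 0.00493, at most 0.0323), and the lysyl oxidase family gene Loxl3 fell by 0.70. Adamts9 passed in all 6 refits. Loxl3 was called in 1 of the 6 refits (highest adjusted p = 0.136). Mmp12 is also in the recruited macrophage list. Between refits the list's rises numbered 5 (without NASH library 3) to 11 (without chow library 1).

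Of 23 integrin genes 5 rose and 0 fell. Itgav, a subunit of receptors for vitronectin, fibronectin and latent TGF-beta, had 715, 639.7 and 601 normalized reads on chow and 1228, 1504 and 1472 on the NASH diet (1.10 ± 0.14, adjusted p = 0.00901, up to 0.0527 without NASH 3). Its partners Itgb5 and Itgb6 rose by 1.92 and 3.92. Itgb6, an epithelial subunit, had 5.22, 3.26 and 12.3 on chow and 44.4, 234 and 113 on the NASH diet, highest in NASH 2. Itgax, the myeloid subunit CD11c, rose by 3.10 with 159, 35.9 and 53.2 on chow and 595, 382 and 889.6 on the NASH diet. Itgb5, Itgb6 and Itgax were called in 2, 4 and 2 of the 6 refits (highest adjusted p = 0.0675, 0.0953 and 0.0991). Rises numbered 0 (without NASH library 3) to 11 (without chow library 1) over the refits. Adhesion molecules rose for 5 of 23 genes and fell for 0 (0 to 6 in the refits and 0 with the hepatocyte covariate, fewest without chow 3 or NASH 2 or 3), with the hyaluronan receptor gene Cd44 at 2.26 ± 0.43 (adjusted p = 0.0279, up to 0.101 in every refit except without chow 1; 1028, 457 and 311 on chow and 1910, 3419 and 2456 on the NASH diet) and the syndecan gene Sdc2 at 0.94 ± 0.19. Madcam1, a leukocyte homing receptor, had 2 chow reads and 30 NASH reads in all, a ratio of 13.45 with a 95% counting interval of 3.412 to 116.1. Icam1 and Vcam1, the adhesion molecules induced by inflammatory cytokines, were at 0.48 and 1.19 (adjusted p = 0.429 and 0.0895). Sele and Selp, named after their values were seen, were at 3.40 and 1.38 and not called (adjusted p = 0.0785 and 0.0609). For Vcam1, Sele and Selp every NASH library lay above every chow library, while Icam1 overlapped. Mcam, the gene of the bead target, is among the 5 rises. Sdc2 and Madcam1 were called in 0 and 1 of the 6 refits (highest adjusted p = 0.107 and 0.131). Of 19 junction genes 2 rose (0 to 2 in the refits, fewest without chow 1 or 3 or NASH 2 or 3), Cdh2 (1.97) and Cgn, known from hepatocytes and epithelia, and 1 fell, the endothelial claudin Cldn5, with 5669, 8877 and 8948 on chow and 4576, 3464 and 3200 on the NASH diet (-1.05 ± 0.22, adjusted p = 0.0357, up to 0.126 in every refit except without chow 1). Cdh2 was called in 1 of the 6 refits (highest adjusted p = 0.128).

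**Figure D3:**
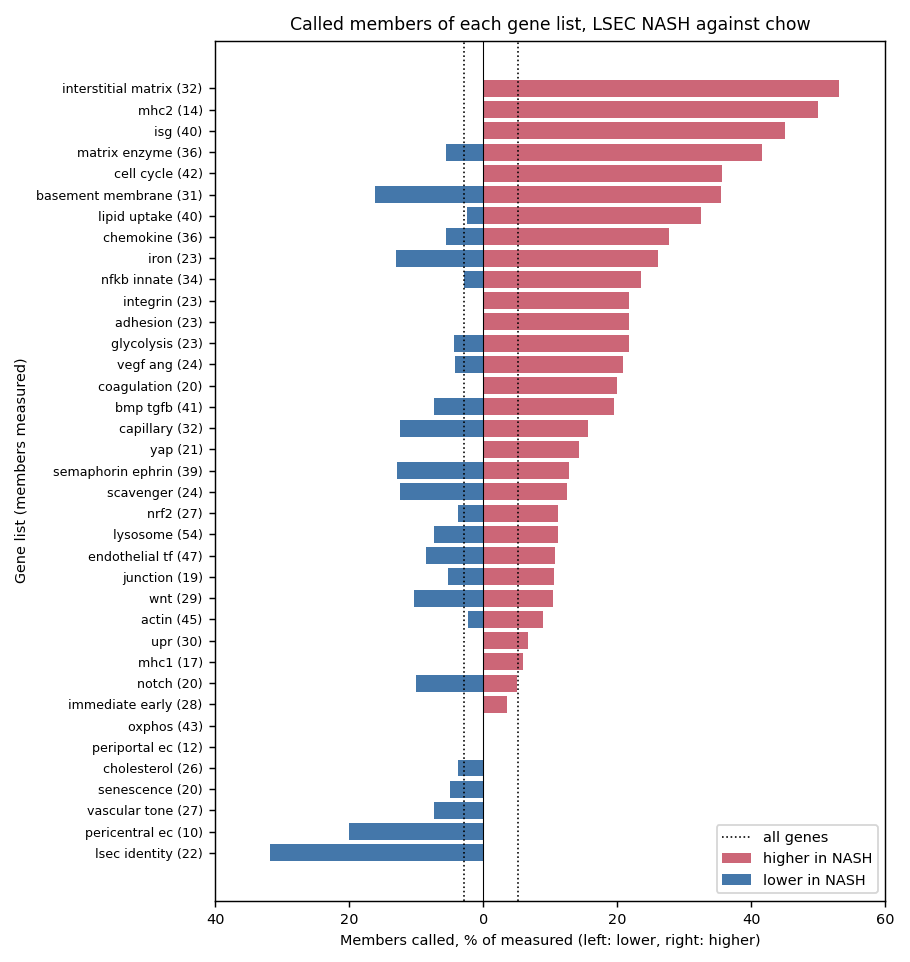
Share of the measured members of each of the 37 gene lists called higher (red, right) or lower (blue, left) in NASH LSEC, with the share among all genes as dotted lines at 5.24% and 2.86%. Interstitial matrix (17 of 32), MHC class II (7 of 14) and interferon-stimulated genes (18 of 40) reach farthest to the right, and sinusoidal identity (7 of 22) farthest to the left.

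Lipid-handling genes rose for 13 of 40 members and fell for 1. Beside Cd36, Pparg and Angptl4, Lpl, the lipoprotein lipase that muscle, fat and macrophages secrete onto endothelium, had 1413, 1018 and 434 normalized reads on chow and 5735, 4426 and 7046 on the NASH diet (2.72 ± 0.41, adjusted p = 0.0161, up to 0.0688 without NASH 1 or 2 or 3). Cd300lg, an endothelial surface glycoprotein known as nepmucin, had 30315, 30454 and 34888 normalized reads on chow and 14973, 15279 and 14352 on the NASH diet (-1.10 ± 0.13, adjusted p = 0.00833, up to 0.0521 without NASH 3). Gpihbp1, the endothelial anchor of lipoprotein lipase, was at -0.60 ± 0.21 (adjusted p = 0.129). Refits gave 3 (without NASH library 3) to 10 (without chow library 2) rises and 5 with the hepatocyte covariate. Cholesterol synthesis and uptake genes gave 1 fall of 26, beside 2.86% of all genes: Dhcr7 (-0.61, adjusted p = 0.05, up to 0.156 with any 1 library left out). The list's median was -0.31. Among 54 lysosomal genes 6 rose and 4 fell (1 to 6 and 0 to 1 in the refits, fewest without NASH 2 or 3). The 4 highest-ranked rises, Cd63, Ctss, Atp6v0d2 and Ctsc, are known from macrophages, and Ctss, cathepsin S, had 2696, 2463 and 1381 normalized reads on chow and 7084, 8357 and 7551 on the NASH diet (1.87 ± 0.25, adjusted p = 0.0115, up to 0.0576 without NASH 2 or 3). The 4 falls were Atp6v0a1 (-0.72), Man2b1 (-0.53), Tpp1 (-0.55) and Lamp2 (-0.55), of which Lamp2, a lysosomal membrane protein, had 31327, 34760 and 36402 on chow and 23577, 23347 and 22740 on the NASH diet. In all 6 refits Cd63 passed. Ctsc, Atp6v0a1, Man2b1, Tpp1 and Lamp2 were called in 3, 1, 0, 0 and 0 of the 6 refits (highest adjusted p = 0.0687, 0.101, 0.11, 0.151 and 0.171).

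Interferon-stimulated genes rose for 18 of 40 members and fell for 0, with a median log2 fold change of 0.93. Many interferon-stimulated genes carry in their promoters the interferon-stimulated response element, to which the STAT and IRF factors bind. The motif TTTCNNTTTC, searched on both strands in the 250 bases before the start, was in 978 of 32851 promoters of the RefSeq table (2.977%) and in 15 of 36 promoters of the list (41.67%). By gene, among those with an entry in that table, it was in a promoter of 4 of 12 that rose and of 11 of 18 that were not called. The 4 that rose are shown over 80 bases with the motif in capitals (GRCm38.p6; Oas3 at chr5:120777690-120777769 and Rsad2 at chr12:26456528-26456607 on the minus strand, Gbp3 at chr3:142559964-142560043 and Ifit1 at chr19:34640769-34640848 on the plus strand):
Oas3: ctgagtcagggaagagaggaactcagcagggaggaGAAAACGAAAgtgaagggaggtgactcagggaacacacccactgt
Gbp3: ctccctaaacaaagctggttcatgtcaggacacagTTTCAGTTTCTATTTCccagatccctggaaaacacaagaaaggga
Rsad2: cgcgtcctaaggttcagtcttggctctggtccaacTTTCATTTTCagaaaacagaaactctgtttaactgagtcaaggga
Ifit1: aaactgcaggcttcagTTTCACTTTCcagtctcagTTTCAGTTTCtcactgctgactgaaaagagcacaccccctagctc
Ifit1 and Gbp3 hold 2 matches each, which overlap in Gbp3, and the others hold 1. Rsad2, the antiviral enzyme viperin, had 1502, 1134 and 1315 normalized reads on chow and 3801, 2354 and 2564 on the NASH diet (1.12 ± 0.20, adjusted p = 0.0252, up to 0.0842 without chow 3 or NASH 1 or 2 or 3). Ifit1, which binds viral RNA, had 314, 613 and 437 normalized reads on chow and 3132, 1510 and 1039 on the NASH diet (1.95 ± 0.42, adjusted p = 0.0369, up to 0.113 in every refit except without chow 2). Oas3, an activator of RNase L, rose by 3.14 and the guanylate-binding protein gene Gbp3 by 1.02.

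The interferon list was led by other genes. Oasl1, which restrains translation of Irf7, had 144, 184 and 171 normalized reads on chow and 831, 824 and 589 on the NASH diet (2.15 ± 0.19, adjusted p = 0.00378, at most 0.0311). Zbp1, a sensor of Z-form nucleic acid, had 121, 144 and 104 normalized reads on chow and 702, 769 and 505 on the NASH diet (2.40 ± 0.22, adjusted p = 0.00389, at most 0.0323). Ifi44 rose by 1.48 and Irf7, described above, by 1.93. In these 4 genes the NASH libraries stood above all chow libraries, with NASH 3 the lowest of the 3. All 6 refits called Ifi44 and Irf7. Oas3 and Gbp3 were called in 3 and 2 of the 6 refits (highest adjusted p = 0.0881 and 0.0798). Between refits the list's rises numbered 4 (without NASH library 2) to 15 (without chow library 2), 26 with scaling by total reads and 9 with the hepatocyte covariate. MHC class I genes gave 1 rise of 17, beside 5.24% of all genes: the peptide transporter Tap1 (0.67, adjusted p = 0.0367, up to 0.123 with any 1 library left out).

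MHC class II genes rose for 7 of 14 members and fell for 0. H2-Eb1, a class II chain that presents peptide to CD4+ T cells, had 1068, 1053 and 571 normalized reads on chow and 4719, 3887 and 4629 on the NASH diet (2.35 ± 0.25, adjusted p = 0.00599, at most 0.0409). H2-Aa, the alpha chain, had 2352, 2203 and 1181 normalized reads on chow and 8776, 7704 and 8316 on the NASH diet (2.17 ± 0.26, adjusted p = 0.00846, at most 0.0491). Both were lowest in chow 3 and even across the NASH libraries. Macrophages and dendritic cells are the main carriers of class II. Both macrophage marker sums were higher in the NASH libraries. The sum of 7 dendritic cell markers was 3785, 2025 and 2162 on chow and 2545, 1770 and 2274 on the NASH diet. It overlapped between diets, with 1 of 7 higher and 0 in the refits. Which cells carried the class II reads was not tested. Adgre1, the F4/80 antigen, had 1561, 940.0 and 608 normalized reads on chow and 2922, 3948 and 3150 on the NASH diet (1.78 ± 0.32, adjusted p = 0.0246, up to 0.0921 without chow 3 or NASH 1 or 2 or 3), also lowest in chow 3. Trem2, a receptor of lipid-associated macrophages, had 56.4, 25.0 and 12.3 normalized reads on chow and 409, 239.8 and 445 on the NASH diet (3.71 ± 0.54, adjusted p = 0.0138, up to 0.0665 without NASH 1 or 3). The Kupffer cell genes Clec4f and Timd4 had 5667, 3528 and 1949 on chow and 5730, 8636 and 6630 on the NASH diet, and 1182, 635 and 363 on chow and 224, 493 and 214 on the NASH diet (adjusted p = 0.133 and 0.178). H2-Ab1 and H2-DMb1 were called in 5 and 4 of the 6 refits (highest adjusted p = 0.0568 and 0.0623). Rises numbered 2 (without NASH library 3) to 9 (without chow library 1) over the refits.

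Of 36 chemokine genes and receptors 10 rose and 2 fell. Ccl2, the monocyte attractant MCP-1, had 43.9, 188 and 77.8 normalized reads on chow and 1038, 876 and 377 on the NASH diet (adjusted p = 0.0287, up to 0.104 without chow 3 or NASH 1 or 2 or 3), with chow 2 the highest of its group. Ccl6 rose by 2.46, Ccl22 by 3.61 and Cx3cl1, the membrane-bound chemokine fractalkine of endothelium, by 1.72. Ackr4, a scavenging receptor that removes homeostatic chemokines, had 2023, 3970 and 2384 normalized reads on chow and 713, 699 and 805 on the NASH diet (-1.86 ± 0.24, adjusted p = 0.0109, up to 0.0519 without NASH 2 or 3). Cxcl13, the B cell attractant, had 352, 271 and 243 normalized reads on chow and 13.5, 56.0 and 7.44 on the NASH diet (-3.90 ± 0.66, adjusted p = 0.02, up to 0.0691 without chow 3 or NASH 1 or 3), with NASH 2 the highest of its group. Ccl22, Ccl6 and Cx3cl1 were each called in 3 of the 6 refits (highest adjusted p = 0.0785, 0.077 and 0.113). Refits gave 0 (without NASH library 3) to 10 (without chow library 1) rises. Among 34 innate signalling genes 8 rose and 1 fell (1 to 10 and 0 to 1 in the refits, fewest without NASH 2 or 3). Il1rn, the interleukin-1 receptor antagonist, had 91.9, 55.5 and 32.8 normalized reads on chow and 985, 1432 and 1051 on the NASH diet (4.34 ± 0.37, adjusted p = 0.00322, at most 0.0251). Il18 rose by 2.19 and the Toll-like receptor genes Tlr1 and Tlr7 by 2.63 and 2.44, while Tlr2 fell by 0.53. Tlr7 had 210.0, 81.6 and 46.1 on chow and 462, 538 and 523 on the NASH diet. Il18, Tlr1, Tlr7 and Tlr2 were called in 4, 1, 1 and 1 of the 6 refits (highest adjusted p = 0.0665, 0.12, 0.118 and 0.151).

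Cell cycle genes rose for 15 of 42 members and fell for 0, with a median log2 fold change of 0.83. Top2a, the topoisomerase of dividing cells, had 346, 355 and 305 normalized reads on chow and 703, 843 and 838 on the NASH diet (1.24 ± 0.14, adjusted p = 0.00762, up to 0.05 without NASH 3). Kif11, a motor of the mitotic spindle, had 117, 108 and 103 normalized reads on chow and 248, 237 and 256 on the NASH diet (1.17 ± 0.17, adjusted p = 0.0148, up to 0.0761 without chow 3 or NASH 1 or 2 or 3). E2f1, which drives entry into S phase, rose by 1.21 and the mitotic kinase gene Plk1 by 1.13. Mcm2 and Pcna, of DNA replication, were at 0.13 and -0.02 and did not pass. E2f1 and Plk1 were each called in 2 of the 6 refits (highest adjusted p = 0.086 and 0.108). Between refits the list's rises numbered 0 (without NASH library 3) to 11 (without chow library 2) and 3 with the hepatocyte covariate. Of 28 immediate early and heat shock genes, which rise with handling of cells, 1 rose (0 to 4 in the refits, most without chow 2), beside 5.24% of all genes. It was Myc, with 342, 942 and 624 normalized reads on chow and 5661, 1943 and 2351 on the NASH diet (2.33 ± 0.48, adjusted p = 0.0343, up to 0.103 in every refit except without chow 2), highest in NASH 1. The list's sum varied widely within each diet, at 78443, 289482 and 257251 on chow and 349839, 137225 and 173304 on the NASH diet. The log2 fold change was above 0 for 24 of the 28. Fos and Jun were at 0.10 and 0.03. Of 20 senescence and p53 genes 0 rose and Sesn1 fell (-0.90, adjusted p = 0.017, up to 0.0665 without chow 3 or NASH 1 or 2 or 3); Cdkn1a, the cell cycle inhibitor p21, was at 0.83 ± 0.57 (adjusted p = 0.4). 

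In energy metabolism, 5 of 23 glycolysis genes rose and 1 fell (0 to 5 and 0 to 1 in the refits, fewest without chow 3), and of 43 oxidative phosphorylation genes 0 were called by limma. Slc2a1, the glucose transporter GLUT1, had 189, 245 and 208 normalized reads on chow and 1012, 709 and 522 on the NASH diet (1.76 ± 0.25, adjusted p = 0.0138, up to 0.0577 without chow 3 or NASH 2). The lactate transporter genes Slc16a3 and Slc16a1 rose by 1.77 and 1.19, and Hk3, the hexokinase of myeloid cells, by 1.72. Ldhb, the dehydrogenase subunit favouring pyruvate, had 891, 1196 and 1075 normalized reads on chow and 544, 456 and 455 on the NASH diet (-1.11 ± 0.16, adjusted p = 0.0122, up to 0.0616 without chow 3 or NASH 2 or 3). For Slc2a1, NASH 1 was the highest and the groups did not overlap. Slc16a3, Slc16a1 and Hk3 were called in 4, 3 and 1 of the 6 refits (highest adjusted p = 0.0661, 0.0975 and 0.106). The oxidative phosphorylation list had a median log2 fold change of -0.23, which was -0.09 with scaling by total reads; edgeR called 0 of its genes higher and 0 lower, and DESeq2 0 and 0. At an unadjusted p under 0.05 it held 5 genes. In the main fit the log2 fold change was above 0 for 1 of the 43, beside 50.02% of all genes.

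Of 23 iron genes 6 rose and 3 fell (2 to 6 and 1 to 2 in the refits, fewest without NASH 2 or 3). The falls were Bmp6, Bmp2 and the haemoglobin receptor gene Cd163 (-2.77). Among the rises was Cp, the ferroxidase ceruloplasmin (1.60, adjusted p = 0.0337, up to 0.119 in every refit except without NASH 1). Steap2, a metalloreductase of endosomes, had 57.5, 41.3 and 62.4 normalized reads on chow and 685, 903 and 995 on the NASH diet (3.98 ± 0.23, adjusted p = 0.00237, at most 0.0214). Its neighbour in the family Steap1 had 1 chow read and 126 NASH reads in all, a ratio of 113 with a 95% counting interval of 19.91 to 4497. Steap4, induced by inflammation and in adipocytes, had 1503, 734 and 2210 normalized reads on chow and 7392, 6220 and 3922 on the NASH diet (2.07 ± 0.41, adjusted p = 0.0312, up to 0.108 without chow 1 or NASH 1 or 2 or 3). Every NASH library exceeded every chow library in all 3. Slc40a1, ferroportin, was at -0.28 ± 0.11 (adjusted p = 0.175). All 6 refits called Steap1. Cd163 was called in 0 of the 6 refits (highest adjusted p = 0.13). Of 27 oxidative stress genes 3 rose and 1 fell (0 to 1 and 0 to 1 in the refits, fewest without chow 3 or NASH 1 or 3). The peroxidase gene Gpx3 and the pentose phosphate gene G6pdx rose by 0.85 and 0.57, each called in 0 of the 6 refits (highest adjusted p = 0.115 and 0.135). Nqo1, a classical NRF2 target, had 334, 539 and 399 normalized reads on chow and 125, 211 and 125 on the NASH diet (-1.48 ± 0.28, adjusted p = 0.0273, up to 0.107 without chow 2 or 3 or NASH 1 or 3), while Hmox1 was at 0.57 ± 0.30 (adjusted p = 0.275). Of 30 unfolded protein response genes 2 rose, beside 5.24% of all genes (0 to 2 in the refits, fewest without chow 3 or NASH 1 or 2 or 3). They were Psat1 (1.71) and Slc7a11, which had 1 chow read and 21 NASH reads in all. The chaperone gene Hspa5 was at 1.27 ± 0.49 (adjusted p = 0.158). Psat1 and Slc7a11 were called in 2 and 1 of the 6 refits (highest adjusted p = 0.119 and 0.167).

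Of 45 actin cytoskeleton genes 4 rose and 1 fell (0 to 5 and 0 to 1 in the refits, fewest without NASH 3), and of 21 YAP target and pathway genes 3 rose and 0 fell (0 to 3 in the refits, fewest without chow 2 or 3 or NASH 1 or 2 or 3). Flna, the actin cross-linker filamin A, had 4659, 3492 and 3155 normalized reads on chow and 9114, 8419 and 9807 on the NASH diet (1.29 ± 0.17, adjusted p = 0.0103, up to 0.056 without NASH 3). Tmsb10, which binds actin monomers, the alpha-actinin gene Actn1 and the myosin gene Myh10 rose by 0.93, 1.00 and 1.42 and were each called in 2 of the 6 refits (highest adjusted p = 0.0954, 0.113 and 0.128). Arhgef15, an endothelial exchange factor for small GTPases, had 14962, 12064 and 12284 normalized reads on chow and 7653, 5932 and 8147 on the NASH diet (-0.86 ± 0.16, adjusted p = 0.0278, up to 0.0819 in every refit except without chow 2). The receptor kinase gene Axl rose by 1.40 and Ankrd1 by 2.20, while Ctgf and Cyr61, the usual YAP readouts, were at 0.99 and 0.71 (adjusted p = 0.126 and 0.34). Of 20 coagulation genes 4 rose and 0 fell (0 to 5 in the refits, fewest without NASH 1 or 3). Plat, tissue plasminogen activator, had 138, 113 and 151 normalized reads on chow and 431, 297 and 405 on the NASH diet (1.48 ± 0.22, adjusted p = 0.0141, up to 0.0687 without NASH 1 or 3), and the tissue factor gene F3 rose by 2.08. The protease inhibitor gene Serpine2 and Procr, the endothelial protein C receptor gene, rose by 2.17 and 0.87 (adjusted p = 0.0229, up to 0.101 without chow 3 or NASH 1 or 2 or 3, and 0.0342, up to 0.114 in every refit except without chow 2). Axl, Ankrd1 and F3 were called in 1, 0 and 0 of the 6 refits (highest adjusted p = 0.115, 0.121 and 0.125). Tsku, the secreted protein Tsukushi named in the series title, had 301, 316 and 213 normalized reads on chow and 408, 405 and 515 on the NASH diet in LSEC (0.69 ± 0.20, adjusted p = 0.0859), with all NASH libraries above all chow libraries and no call.

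By the naming rule, the 12 largest rises were Mmp12, Gpnmb, Ctsj, Atp6v0d2, Cfap69, Gdf3, Mmp13, Serpina7, Cldn2, Il1rn, Ltbp2 and Ccl9. Gpnmb, a glycoprotein of lipid-laden macrophages, had 31.3, 18.5 and 12.3 normalized reads on chow and 1125, 1205 and 3063 on the NASH diet (6.31 ± 0.47, adjusted p = 0.00263, at most 0.0214). Atp6v0d2, a proton pump subunit of osteoclasts and macrophages, had 8.36, 0 and 3.07 normalized reads on chow and 143, 179 and 363 on the NASH diet (5.97 ± 0.81, adjusted p = 0.0118, up to 0.0609 without NASH 2 or 3). Cfap69, a gene of cilia and flagella, had 10.4, 27.2 and 14.3 normalized reads on chow and 502, 606 and 582 on the NASH diet (5.04 ± 0.35, adjusted p = 0.00241, at most 0.0214), with the NASH libraries close together. Cldn2, a claudin of bile duct and hepatocyte junctions, had 17.8, 44.6 and 30.7 normalized reads on chow and 273, 1356 and 682 on the NASH diet (4.40 ± 0.59, adjusted p = 0.0116, up to 0.0609 without NASH 3), highest in NASH 2. Ctsj, Gdf3, Serpina7 and Ccl9 were called in 4, 2, 2 and 2 of the 6 refits (highest adjusted p = 0.0609, 0.0901, 0.107 and 0.136).

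The 12 largest falls were Mup7, Fam101a, Klhdc8a, Cxcl13, Col4a3, Col4a4, Tiam1, Cyp1a1, Bhlhe41, Cd163, Lypd6 and Cd209b. Mup7, a urinary protein gene of hepatocytes with near-identical copies that reads cannot be split between with certainty, had 58.5, 450.4 and 6.14 normalized reads on chow and 0, 0 and 0 on the NASH diet, most of it in chow 2. Its 476 chow reads against 0 NASH reads put it at least 177-fold lower, with the NASH group set to a floor of 3 reads in total, and the exact 95% counting interval starts at 143.4-fold. Without chow 2 the 62 chow reads left put it at least 34.01-fold lower by the same floor, with an interval from 26.84-fold. Fam101a, which regulates actin filaments, had 157, 281 and 154 normalized reads on chow and 1.93, 1.87 and 4.65 on the NASH diet (-5.71 ± 0.43, adjusted p = 0.00263, at most 0.0214). Klhdc8a, a kelch repeat gene, had 302, 119.7 and 234 normalized reads on chow and 6.76, 16.8 and 13.0 on the NASH diet (-4.04 ± 0.46, adjusted p = 0.00762, at most 0.0419). Tiam1, an activator of the GTPase Rac1, had 3113, 3205 and 3183 normalized reads on chow and 549.8, 216 and 402 on the NASH diet (-3.12 ± 0.31, adjusted p = 0.00493, at most 0.0303), nearly equal in the chow libraries. Cyp1a1, the target of the aryl hydrocarbon receptor, had 400.1, 149 and 274 normalized reads on chow and 18.4, 59.7 and 28.8 on the NASH diet (-2.96 ± 0.51, adjusted p = 0.0216, up to 0.0901 without chow 3 or NASH 1 or 3). Lypd6, a membrane-anchored Wnt modulator, had 387, 312 and 377 normalized reads on chow and 69.6, 28.0 and 78.1 on the NASH diet (-2.72 ± 0.39, adjusted p = 0.0137, up to 0.0591 without chow 3). In all of these the diets did not overlap. Bhlhe41 passed in all 6 refits. Mup7 was called in 2 of the 6 refits (highest adjusted p = 0.136).

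**Figure D4:**
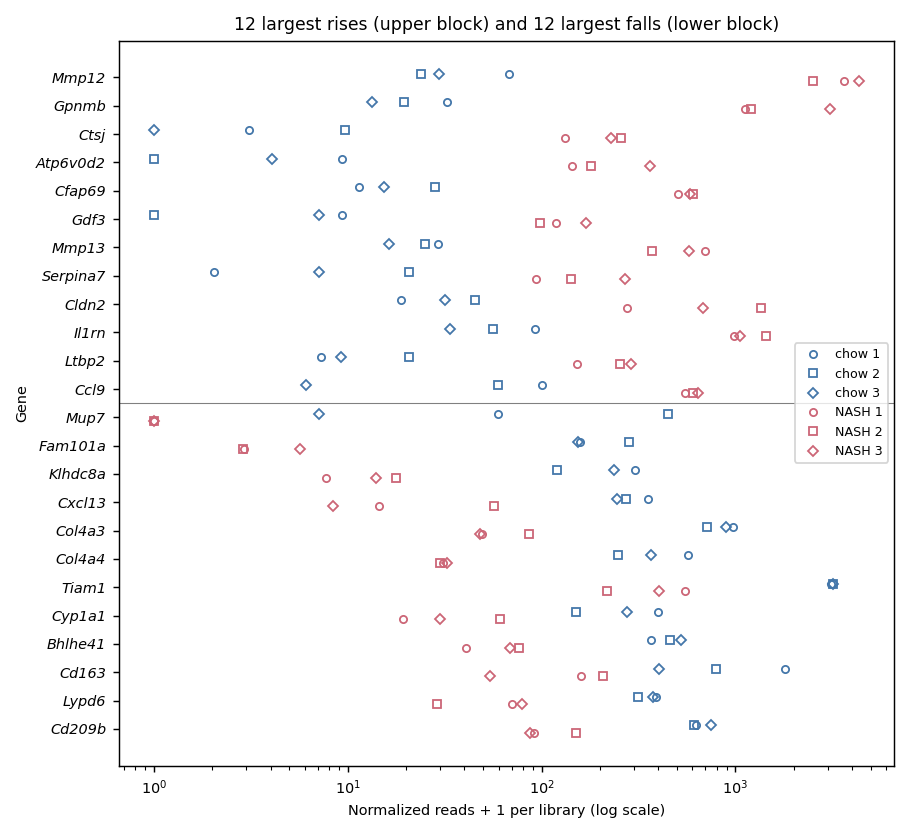
Normalized reads + 1 (log axis) of the 12 largest rises and 12 largest falls in each of the 6 LSEC libraries, blue for chow and red for NASH. In all 24 genes the diets do not overlap; Cd163 ranges from 401 to 1801 in chow.

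These 24 genes were set against whole liver, where the same diets were profiled, by testing the difference of the 2 NASH effects in 1 limma fit over the 12 libraries and the 15766 genes in both tables. The difference was called for 12 of the 24 genes, beside 18.5% of all shared genes; the 24 were chosen by their LSEC effect, which this difference contains. In 7 of the 12 the gene fell in LSEC and had a liver value between -0.61 and 0.58, which was not tested here by itself. Fam101a was at -5.71 in LSEC and 0.58 in liver (adjusted p of the difference = 0.00133), Col4a3 at -3.85 and -0.61 (0.000373) and Col4a4 at -3.58 and 0.01 (0.000392). Tiam1 was at -3.12 and -0.21 (0.0011). Among the rises, Cldn2 was at 4.40 in LSEC and 0.56 in liver (0.00348) and Il1rn at 4.34 and 1.47 (0.00131). The macrophage genes Mmp12 and Gpnmb were at 6.55 and 6.31 in LSEC and 5.57 and 6.36 in liver (adjusted p of the difference = 0.201 and 0.966). Cd163 was lower in both, at -2.77 in LSEC and -5.75 in liver (0.0346).

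**Figure D5:**
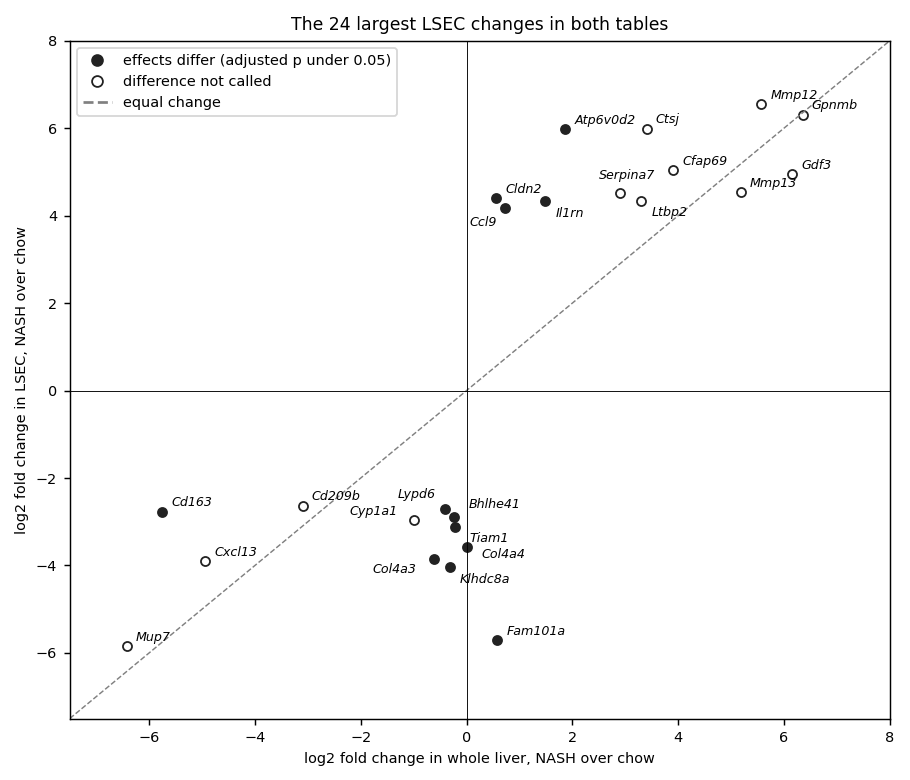
Log2 fold change, NASH over chow, of the 24 genes in whole liver (horizontal) and in LSEC (vertical), with the line of equal change dashed; filled points are the 12 genes whose effects differed (limma, adjusted p under 0.05). Fam101a, Klhdc8a, Col4a3, Col4a4, Tiam1, Bhlhe41 and Lypd6 lie low near the vertical axis, with liver values between -0.61 and 0.58.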

How the data were processed

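RNA-seq libraries of purified LSEC were analysed from the authors' deposited table, whose per-library columns hold a normalized signal for every gene. The tools named per the submitters' processing notes are STAR, HTSeq, FastQC, Seurat and DESeq2, on mm10; their versions and settings, and the strandedness, are not given here, so overlapping and antisense genes cannot be told apart. The same deposited table gives the authors' log2 fold change, and their p-value and adjusted p-value, made from these libraries per the file headers; these columns were not used. Each library's signal was reads divided by 1 factor, since dividing by the smallest value above 0 gave whole reads within 0.01 for 100% of values. Depth limits low genes, and counting intervals (95%, exact, on summed reads) cover counting error only. Of the gene names 20 had become dates and 2 were repeated, and 98.857% matched GENCODE M21, the source of gene coordinates and exon lengths.

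The main test was limma 3.58.1 (R 4.3.3) with a variance trend on log2(value + 1), unfiltered, on the 6 LSEC libraries with no covariate, called at a Benjamini-Hochberg adjusted p under 0.05; this scale understates folds of low genes. Alternatives were pseudocounts of 0.5 and 10, a minimum mean of 10 reads, scaling by total reads, median centring, edgeR 4.0.16 and DESeq2 1.42.0 on recovered reads, the mean log2 hepatocyte marker level as a covariate, a threshold of 0.01 and each library left out (refits). The steps were tested on simulated data. The members, 37 gene lists and 16 marker lists were chosen with earlier results of these data known, and 3 further lists after the values were seen. Named genes are the 12 largest called rises and the 12 largest called falls (mean over the 6 libraries 50 reads or more, predicted genes left out), up to 4 called members per list and direction by adjusted p, and members that define a list; some genes that this rule takes are not reported here, and genes outside this rule are named as such or serve as the background of a list.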

Additional observations from a re-analysis of the deposited data

Results flagged for a closer look

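In 12 of the 24 largest LSEC changes the NASH effect differed between LSEC and whole liver, by limma's test of the difference over 12 libraries with Benjamini-Hochberg adjustment over 15766 genes. Values are LSEC minus liver on the log2 scale. The difference was negative for Fam101a (-6.30 ± 0.90 SE, adjusted p = 0.00133), Klhdc8a (-3.73), Col4a4 (-3.60), Col4a3 (-3.24), Tiam1 (-2.91), Bhlhe41 (-2.66) and Lypd6 (-2.31), with adjusted p between 0.000373 and 0.0133. All 7 were lower in NASH LSEC. It was positive for the rises Atp6v0d2 (4.11 ± 0.91 SE, adjusted p = 0.0111), Cldn2 (3.84), Ccl9 (3.44) and Il1rn (2.87), with adjusted p between 0.00131 and 0.0439. Cd163, a haemoglobin receptor of resident macrophages, fell less in LSEC than in liver (2.98, adjusted p = 0.0346). The 24 genes were picked by the size of their LSEC effect, which is part of the difference, and 18.5% of all shared genes were called as different.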

How the results depend on the processing

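No paired analysis was possible because the LSEC columns carry no replicate number of the labels. The 1319 calls (853 higher, 466 lower) stayed within 1.5 times with pseudocounts of 0.5 and 10 (1284 and 1290), a minimum mean of 10 reads (1315) and edgeR (1214). No called gene that was tested changed sign under any setting. Falls numbered 273 with scaling by total reads and 801 with median centring; both move the centre of all genes by construction. DESeq2 called 2539 genes (1605 higher, 934 lower). The hepatocyte covariate left 534 (394 higher, 140 lower), 429 of them among the main calls; the cause was not tested, and the covariate takes 1 of 4 residual degrees of freedom. A threshold of 0.01 left 126 (81 higher, 45 lower). Leaving out 1 library gave 124 to 1171 calls, 75 to 793 higher and 49 to 378 lower; each such fit has fewer samples. Of the differences from liver that were not called, that of Gpnmb ranged from -0.51 to 0.29 and that of Mup7 from -0.94 to 2.06 with 1 library left out, Mup7 was at -4.70 with edgeR, and Cd209b at -0.49 with a pseudocount of 10. The count of differences called among the 24 genes was 10 to 17 over the alternatives. With 3 libraries per diet, a gene that missed the threshold is not shown to be unchanged.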

Other observations

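Further groups of genes were put together after their values were seen. Their counts of calls and adjusted p-values describe the chosen genes and are no test of a group. Over all genes 5.24% were called higher and 2.86% lower. Among 19 circadian clock genes 5 were lower in NASH LSEC and 0 higher, and the 5 are outputs and repressors of the clock. Bhlhe41, the repressor DEC2, had 365, 460.2 and 520.0 normalized reads on chow and 39.6, 75.6 and 67.9 on the NASH diet (-2.89 ± 0.29, limma adjusted p = 0.00493, at most 0.0303). Hlf, a PAR domain output factor, had 1441, 2399 and 2076 normalized reads on chow and 344, 516 and 496 on the NASH diet (-2.11 ± 0.24, adjusted p = 0.00704, at most 0.0391), and its relatives Dbp and Tef were at -1.41 and -0.82. Nr1d1, the repressor REV-ERB alpha, was at -1.12, while the activators Arntl and Clock were at 1.23 and 0.02 (adjusted p = 0.182 and 0.974). The hour of collection is not given in the sources used here. Dbp, Tef and Nr1d1 were called in 2, 2 and 3 of the 6 refits (highest adjusted p = 0.0691, 0.0811 and 0.0785).

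Among 24 genes of prostaglandin, thromboxane and leukotriene metabolism 6 were lower and 4 higher. Ltc4s, leukotriene C4 synthase, had 401, 433 and 509 normalized reads on chow and 83.1, 94.2 and 79.0 on the NASH diet (-2.37 ± 0.18, adjusted p = 0.00266, at most 0.0217). Tbxa2r, the thromboxane receptor, had 1309, 1667 and 1594 normalized reads on chow and 511, 424 and 403 on the NASH diet (-1.77 ± 0.15, adjusted p = 0.00322, at most 0.0251). Alox12, a lipoxygenase, was at -1.65, and the prostaglandin transporter and degrading enzyme genes Slco2a1 and Hpgd were at -1.19 and -1.22. The 4 that were higher, Pla2g4a, Cysltr1, Ptger4 and Tbxas1 (1.75, 1.46, 1.56 and 1.06), are known from macrophages, and their source here was not tested. Of 17 imprinted genes, expressed from 1 parental allele, 4 were higher and 1 lower. Mest had 745, 801 and 915 normalized reads on chow and 3744, 2615 and 3094 on the NASH diet (1.93 ± 0.16, adjusted p = 0.00322, at most 0.025), Plagl1 was at 1.76 and Peg10 at 3.07. All 6 refits called Alox12, Plagl1 and Peg10. Slco2a1, Hpgd, Pla2g4a, Cysltr1, Ptger4 and Tbxas1 were called in 3, 1, 2, 2, 1 and 1 of the 6 refits (highest adjusted p = 0.0782, 0.142, 0.0831, 0.0981, 0.119 and 0.139).

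Of the 105 genes called in all 6 refits, several belong to none of the lists. Npy, the neuropeptide Y gene, had 1 read over the chow libraries and 210 over the NASH libraries, a ratio of 188.3 with a 95% counting interval of 33.43 to 7471. Enpep, the aminopeptidase that removes angiotensin II, had 10007, 10276 and 10967 normalized reads on chow and 4438, 4562 and 4593 on the NASH diet (-1.20 ± 0.10, adjusted p = 0.00322, at most 0.0278). Ada, adenosine deaminase, had 1810, 1406 and 1670 normalized reads on chow and 433, 582 and 428 on the NASH diet (-1.76 ± 0.17, adjusted p = 0.00477, at most 0.0323). Cntfr, the ciliary neurotrophic factor receptor, had 4655, 7638 and 5953 normalized reads on chow and 1072, 1573 and 1136 on the NASH diet (-2.26 ± 0.22, adjusted p = 0.0048, at most 0.0323), and Car8, a carbonic anhydrase-related protein, was at -1.76. Serping1, the inhibitor of complement C1, had 1601, 2004 and 2315 normalized reads on chow and 8392, 6387 and 4885 on the NASH diet (1.71 ± 0.22, adjusted p = 0.0109, at most 0.0496).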
